A study of Mus musculus with 2 samples.

Results

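Glycolysis and the response to low oxygen were followed through 36 genes of the 32285 in each library. The genes were taken by symbol and cover glucose and lactate transporters, the enzymes of glycolysis, the oxygen sensors and target genes of hypoxia-inducible factor (HIF). Every one of the 36 symbols was found. Aldoa occupied 2 rows with identifiers of their own, whose counts were added, so that 37 rows were read. The study sorted CD45+ cells, meaning leukocytes, from subcutaneous tumors of MC38, a colon carcinoma line of mouse, in animals labelled WT. The Control library was made without irradiation, and the IR library 4 days after the tumors received 20 Gy of ionizing radiation locally in 1 dose. Tumors were pooled before sequencing, which leaves 1 library for either condition, no replicate and no test. The labels also give a narrower cell type, CD45+CD11b+Ly6Chi, whereas T cells, NK cells and macrophages made up much of both libraries. Strain, sex and age of the animals are not in the labels.

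Glycolysis splits glucose into pyruvate in the cytosol and yields ATP without oxygen, and lactate dehydrogenase with a lactate exporter lets the pathway run on. When oxygen is low, HIF-1alpha escapes hydroxylation by the EGLN enzymes, pairs with ARNT and binds a short DNA motif, RCGTG, near genes of glucose uptake, glycolysis, mitophagy and its own control. Activated T cells, NK cells, inflammatory macrophages and neutrophils all raise glycolysis as well, through HIF-1alpha, Myc or mTOR, in the presence of oxygen.

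Cells were placed in 6 gates by the UMIs (unique molecular identifiers, 1 per captured RNA molecule) of marker genes, with every cell thinned at random to 1000 UMIs for the purpose. The Control and IR libraries gave 558 and 983 cells in the monocyte gate, 2080 and 514 in the macrophage gate, 398 and 242 in the T gate, 263 and 383 in the NK gate, 22 and 147 in the neutrophil gate and 73 and 59 in the stromal gate, out of 4679 and 3410 cells past the filters. The deposited counts summed to 48593879 and 42406461 UMIs, and 7 cell barcodes were shared by the libraries. Median depth ran from 1760.5 UMIs (Control neutrophil gate) to 25891 UMIs (IR stromal gate). All UMIs of a gene in a gate were then summed and given as CPM, the UMIs scaled to a common total in each gate and library. Ratios are IR over Control with an exact conditional 95% interval, which covers counting error only and neither mouse nor library variation. The 6 gates came from the same 2 libraries and are not independent of each other.

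The gates were set on these markers, so their levels describe the gates and test nothing. The summed monocyte list stood at 7270 and 7360 CPM in the monocyte gate, the macrophage list at 10200 and 8410 CPM in the macrophage gate, the T list at 6470 and 6120 CPM in the T gate and the NK list at 7680 and 9700 CPM in the NK gate. Ptprc, the gene of CD45, was at 15.7 and 11.6 CPM in the stromal gate against 368 to 1020 CPM in the other gates, so that the stromal gate, selected on collagens, Sparc, Bgn and Dcn, went against the label of the sort. The RNA of other lineages was not evenly spread. In the T gate the monocyte list stood at 1320 and 2310 CPM and the neutrophil list at 107 and 439 CPM. The monocyte list was at 892 and 2090 CPM in the macrophage gate and at 994 and 2270 CPM in the stromal gate. Of the stromal markers Sparc was found in all stromal-gate cells, and Col1a1 in 14 of 73 Control and 14 of 59 IR cells. The neutrophil gate is shown chiefly for its IR cells. The minimum of 30 neutrophil UMIs was set after a few Control cells were seen to hold most of its UMIs at a minimum of 8. Its 22 Control cells held 37815 UMIs, against 455958 in IR, and the cells were selected on 10 genes that alone made up 116000 and 83600 CPM.

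Since many of the genes are known HIF targets, their promoters were searched for the forms of the HIF motif, ACGTG and GCGTG, on both strands and with overlaps between the forms counted. RefSeq sequences of GRCm38.p6 were used, 250 bases before to 50 after a start site. Of the 36 genes 32 matched, with 47 promoters. Slc2a3, Bnip3l, Ero1l and Ndrg1 were not matched. At least 1 of the forms lay in 37 of 47 promoters (78.7%), against 43.8% of all 32851 promoters. ACGTG was in 53.2% against 19.6% and GCGTG in 55.3% against 32.4%. A match describes letters in the window and not a bound site. Because known HIF targets were among the genes chosen, a higher share than in all promoters was built into the choice and tests nothing. The promoters compared were not matched for base content. Windows of 1 gene can overlap, and those of Aldoa count the same match more than once. The 250 bases before the start site are shown for the 4 genes of transport, lactate formation and mitophagy that the results turn on, for the oxygen sensor Egln3, and for Tpi1, which held neither form. Capitals mark the matched letters, and each sequence reads 5′ to 3′ on the strand of its gene. Ldha lies at chr7:46845554-46845803 (plus strand), Bnip3 at chr7:138909507-138909756 (minus), Slc2a1 at chr4:119108495-119108744 (plus), Slc16a3 at chr11:120948817-120949066 (plus), Egln3 at chr12:54203875-54204124 (minus) and Tpi1 at chr6:124814159-124814408 (minus).
Ldha: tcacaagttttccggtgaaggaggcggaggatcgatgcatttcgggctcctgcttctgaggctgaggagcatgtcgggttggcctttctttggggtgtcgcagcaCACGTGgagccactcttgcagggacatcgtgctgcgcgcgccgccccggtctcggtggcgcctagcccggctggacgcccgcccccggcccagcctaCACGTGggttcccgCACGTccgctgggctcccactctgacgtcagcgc
Bnip3: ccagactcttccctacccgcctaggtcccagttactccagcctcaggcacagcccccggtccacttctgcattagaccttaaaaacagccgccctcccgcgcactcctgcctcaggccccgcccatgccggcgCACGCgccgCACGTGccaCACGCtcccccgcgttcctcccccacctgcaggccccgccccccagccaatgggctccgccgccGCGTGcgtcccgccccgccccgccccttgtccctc
Slc2a1: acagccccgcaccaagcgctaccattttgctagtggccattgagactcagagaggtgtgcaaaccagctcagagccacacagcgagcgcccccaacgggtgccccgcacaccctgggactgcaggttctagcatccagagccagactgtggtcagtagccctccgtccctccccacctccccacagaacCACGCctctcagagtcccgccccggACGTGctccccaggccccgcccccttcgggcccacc
Slc16a3: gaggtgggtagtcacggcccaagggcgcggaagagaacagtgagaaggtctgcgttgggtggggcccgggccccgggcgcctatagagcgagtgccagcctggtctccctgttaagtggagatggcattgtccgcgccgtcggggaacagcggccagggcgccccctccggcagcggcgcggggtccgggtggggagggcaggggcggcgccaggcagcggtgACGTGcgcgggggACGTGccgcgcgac
Egln3: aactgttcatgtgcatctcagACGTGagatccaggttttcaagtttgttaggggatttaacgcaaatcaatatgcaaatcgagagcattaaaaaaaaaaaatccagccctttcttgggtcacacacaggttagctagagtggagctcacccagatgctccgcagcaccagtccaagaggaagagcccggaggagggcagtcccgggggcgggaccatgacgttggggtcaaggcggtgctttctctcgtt
Tpi1: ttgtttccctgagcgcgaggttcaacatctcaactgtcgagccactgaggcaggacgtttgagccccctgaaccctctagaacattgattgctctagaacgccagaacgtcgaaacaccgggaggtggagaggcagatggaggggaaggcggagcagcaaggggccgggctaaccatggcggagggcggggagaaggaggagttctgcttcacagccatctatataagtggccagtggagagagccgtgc

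In these windows Ldha had 5 matches in 3 places, and 1 match in the 250 bases before its other start site in the table (chr7:46846832-46847081). The palindrome CACGTG counts on both strands. Bnip3 had 5, Slc2a1 and Slc16a3 had 2 each, close to the start, and Egln3 had 1.

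In the monocyte, macrophage, T and NK gates, cells of the IR library held more RNA of the glycolytic enzymes relative to all RNA. The NK gate had the largest ratio, with an interval apart from those of the other gates. Summed over the 36 genes, the share of all UMIs was 0.685% in Control and 1.06% in IR in the NK gate, a ratio of 1.54 (1.51 to 1.58). It was 1.26% and 1.63% in the macrophage gate (1.29, 1.28 to 1.3), 0.995% and 1.29% in the T gate (1.29, 1.27 to 1.32) and 1.1% and 1.37% in the monocyte gate (1.25, 1.24 to 1.26). The stromal gate had 1.14% and 1.29% (1.13, 1.1 to 1.15), and the neutrophil gate 0.976% and 1.05% (1.08, 0.971 to 1.2), where the interval holds 1. Outside the gates the summed genes had a ratio of 1.18 (1.17 to 1.2) in empty droplets and 1.09 (1.07 to 1.12) in dendritic cells. These sums rest mainly on 9 abundant enzymes (Gpi1, Aldoa, Tpi1, Gapdh, Pgk1, Pgam1, Eno1, Pkm and Ldha), which made up 79.4% to 87.6% of the UMIs in the gates other than the neutrophil gate and 59.9% and 68.4% there. Per gene, the median log2 ratio of CPM plus 10 was 0.27 in the NK gate, 0.3 in the T gate, 0.25 in the macrophage gate and 0.13 in the monocyte gate, over 32, 33, 35 and 34 genes with enough UMIs (at least 20 over both libraries and 5 expected in each). All genes tested had medians between -0.04 and -0.01 in these gates. The stromal median of 0.13 over 30 genes, beside -0.03 for all genes, went to -0.03 with a stricter gate.

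A ratio past 1.5 on the CPM plus 10 scale was counted as a call. None of the 34 genes was called in the monocyte gate, where 2.3% of all genes tested were called higher and 0.949% lower. In the macrophage gate Slc2a1 was called higher and no gene lower (background 2.48% higher and 2.01% lower). The macrophage gate had 0 calls with its minimum raised by 2, with free RNA subtracted, without cycling cells and with cells split by Ly6c2 against C1qa, where the Slc2a1 log2 ratio of 0.6 was 0.57, 0.56, 0.53 and 0.48. In the T gate 6 of 33 genes were called higher (Hk3, Slc16a3, Bnip3, Ero1l, Egln3 and Ndrg1) and none lower, against 3.83% and 1.55% of all genes. With the T gate minimum raised by 2 (300 and 166 cells) Bnip3 alone was called, at a log2 ratio of 1.21, with Slc16a3 at 0.53, Ero1l at 0.58, Egln3 at 0.33, Ndrg1 at 0.51 and Hk3 short of UMIs. The NK gate had 9 of 32 called higher (Aldoa, Tpi1, Gapdh, Pgk1, Eno1, Pkm, Ldha, Slc16a3 and Bnip3) and none lower, against 2.37% and 1.86%. In the stromal gate 2 of 30 were higher (Slc16a3 and Higd1a) and 2 lower (Egln3 and Adm), against 4.4% and 4.75% of all genes. In the neutrophil gate 4 of 19 were higher (Pfkp, Pgam1, Pkm and Egln3) and 4 lower (Slc16a3, Bnip3, Ero1l and Higd1a), where 26.2% and 17.9% of all genes were called.

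**Figure D1:**
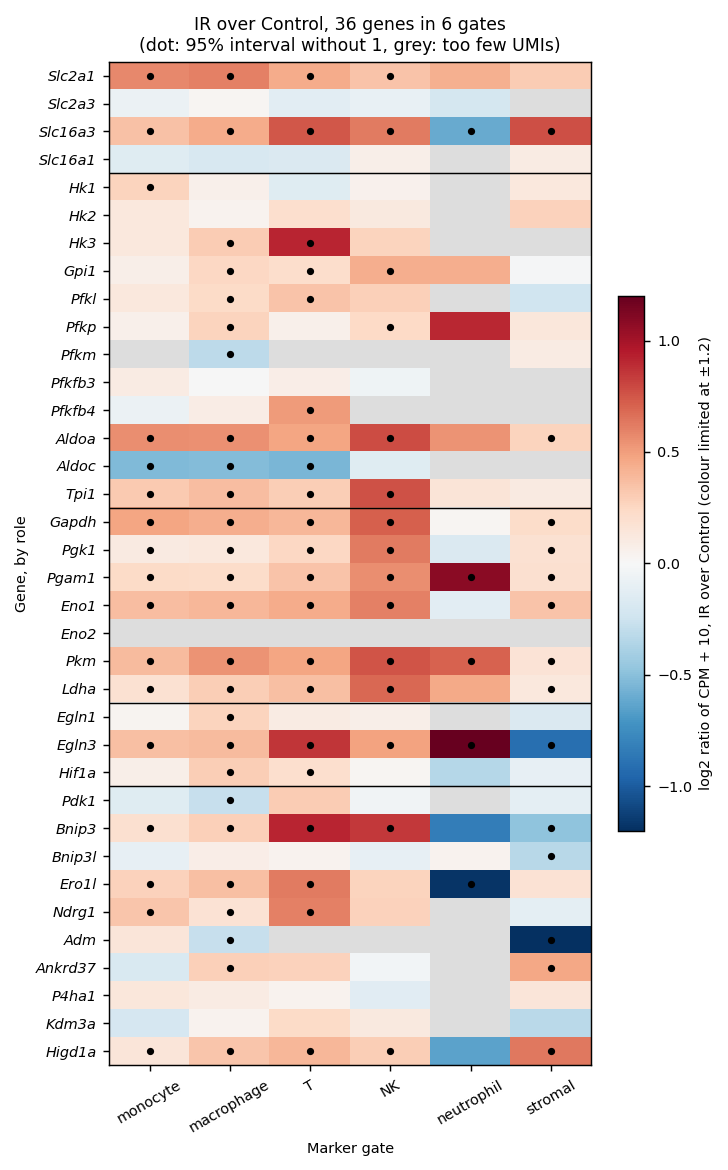
Log2 ratio of CPM plus 10, IR over Control, for the 36 genes (rows, ordered by role) in the 6 marker gates (columns), with a dot where the exact 95% interval of the ratio does not hold 1 and grey where there were too few UMIs. The rows from Aldoa to Ldha are red in the monocyte, macrophage, T and NK columns except for Aldoc and Eno2, and the NK column is darkest there, while the neutrophil and stromal columns hold both colours.

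Glucose enters through Slc2a1 (GLUT1), the carrier of most proliferating cells, and Slc2a3 (GLUT3), a carrier of high affinity used by lymphocytes and neurons. Slc2a1 (ENSMUSG00000028645, chromosome 4, 119108711 to 119137983) was at 128 and 195 CPM in the monocyte gate, 117 and 183 CPM in the macrophage gate, 64.2 and 90.8 CPM in the T gate, 49.8 and 66 CPM in the NK gate, 185 and 252 CPM in the neutrophil gate and 72.5 and 92 CPM in the stromal gate for Control and IR in turn. Slc2a1 ratios of IR over Control were 1.53 (1.38 to 1.7) in the monocyte gate, 1.56 (1.45 to 1.68) in the macrophage gate, 1.42 (1.14 to 1.76) in the T gate, 1.33 (1.04 to 1.7) in the NK gate, 1.36 (0.64 to 3.46) in the neutrophil gate and 1.27 (0.97 to 1.67) in the stromal gate. It was thus higher in IR in all 6 gates, just short of a call in the monocyte gate (log2 ratio 0.58 against 0.6 in the macrophage gate), with intervals that hold 1 in the neutrophil and stromal gates. In empty droplets Slc2a1 was higher in IR as well, at 60.9 and 112 CPM (1.84, 1.56 to 2.17). That ratio lies above those of the 6 gates, and its interval overlaps all of theirs. Subtracting free RNA left Slc2a1 short of a call in the macrophage gate (above). The part of free RNA in its gate ratios was not tested further. Slc2a3 was different in the gates. Slc2a3 (ENSMUSG00000003153, chromosome 6, 122727809 to 122801640) was at 6.85 and 6.05 CPM in the monocyte gate, 4.89 and 5.13 CPM in the macrophage gate, 60.9 and 55.1 CPM in the T gate, 25.2 and 23.1 CPM in the NK gate and 159 and 136 CPM in the neutrophil gate for Control and IR in turn. Slc2a3 ratios of IR over Control were 0.88 (0.54 to 1.48) in the monocyte gate, 1.05 (0.68 to 1.58) in the macrophage gate, 0.9 (0.7 to 1.16) in the T gate, 0.92 (0.63 to 1.34) in the NK gate and 0.86 (0.37 to 2.42) in the neutrophil gate, and all 5 intervals hold 1. The stromal gate had 2 and 1 UMIs. Its levels were highest in the neutrophil and T gates. Among the UMIs of both genes its share in the T gate was 48.7% in Control (42.9% to 54.5%) and 37.7% in IR (32.3% to 43.4%), while in the macrophage gate it was 4.01% in Control (3.26% to 4.87%) and 2.73% in IR (1.86% to 3.85%). Shares between genes also carry differences in capture, so they are compared between gates and not read as a ratio of molecules.

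Lactate leaves through Slc16a3 (MCT4), an exporter of glycolytic cells and a HIF target, whereas Slc16a1 (MCT1) carries lactate in both directions. Slc16a3 (ENSMUSG00000025161, chromosome 11, 120948480 to 120960868) was at 276 and 355 CPM in the monocyte gate, 259 and 356 CPM in the macrophage gate, 68.7 and 122 CPM in the T gate, 41.6 and 69.4 CPM in the NK gate, 1322 and 866 CPM in the neutrophil gate and 38.8 and 73.1 CPM in the stromal gate for Control and IR in turn. Slc16a3 ratios of IR over Control were 1.29 (1.2 to 1.38) in the monocyte gate, 1.37 (1.31 to 1.45) in the macrophage gate, 1.77 (1.46 to 2.17) in the T gate, 1.67 (1.29 to 2.18) in the NK gate, 0.66 (0.49 to 0.9) in the neutrophil gate and 1.89 (1.34 to 2.7) in the stromal gate. The level was highest in neutrophil-gate cells and was higher in IR in the other 5 gates. The neutrophil ratio went the other way but was not stable. On the log2 scale of CPM plus 10 it was -0.6, -0.06 with TMM scaling, and 0.32 when the gate took cells with at least 8 neutrophil UMIs in place of 30. Slc16a1 (ENSMUSG00000032902, chromosome 3, 104638668 to 104658462) was at 17.8 and 15.1 CPM in the monocyte gate, 18.2 and 14.7 CPM in the macrophage gate, 32.5 and 27.8 CPM in the T gate, 17 and 18.3 CPM in the NK gate and 23.9 and 26.2 CPM in the stromal gate for Control and IR in turn. Slc16a1 ratios of IR over Control were 0.85 (0.63 to 1.16) in the monocyte gate, 0.81 (0.63 to 1.02) in the macrophage gate, 0.85 (0.6 to 1.21) in the T gate, 1.08 (0.7 to 1.71) in the NK gate and 1.09 (0.67 to 1.82) in the stromal gate, and all 5 intervals hold 1. In the neutrophil gate it had 0 and 2 UMIs. Slc16a3 therefore took a larger share of the pair in IR, 67.9% in Control (61.7% to 73.7%) and 81.4% in IR (76.7% to 85.6%) in the T gate and 93.4% in Control (92.7% to 94.1%) and 96% in IR (95.1% to 96.8%) in the macrophage gate.

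**Figure D2:**
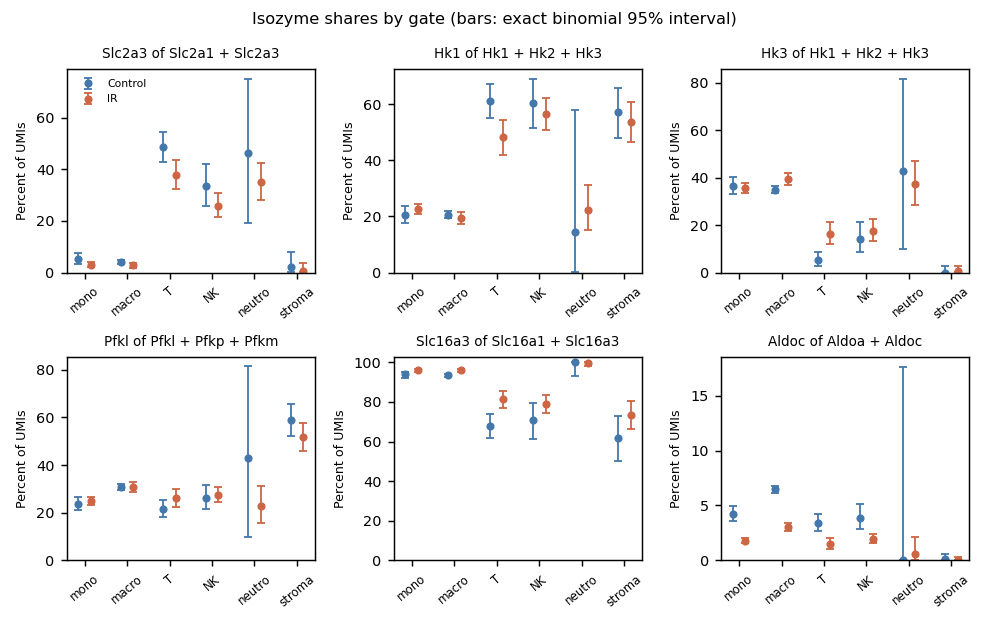
Share of 1 gene among the UMIs of its isozymes or partner carriers (percent, vertical axis) by gate for Control (blue) and IR (orange), with exact binomial 95% intervals. Slc2a3 and Hk1 take larger shares in the T and NK gates than in the monocyte and macrophage gates, Slc16a3 takes over 90% in the myeloid gates, and Aldoc takes a smaller share in IR in the monocyte, macrophage, T and NK gates.

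Hexokinase traps glucose as its phosphate. Hk1 is the housekeeping form, Hk2 the inducible one of growing cells and Hk3 a form of myeloid cells. Positions of these and the other genes are those of the GENCODE annotation of GRCm38. Hk1 (ENSMUSG00000037012, chromosome 10, 62268855 to 62379908) was at 41.4 and 51.7 CPM in the monocyte gate, 42.4 and 44.6 CPM in the macrophage gate, 65.8 and 58.4 CPM in the T gate, 42.7 and 44.5 CPM in the NK gate and 59.4 and 65.8 CPM in the stromal gate for Control and IR in turn. Hk1 ratios of IR over Control were 1.25 (1.04 to 1.51) in the monocyte gate, 1.05 (0.91 to 1.21) in the macrophage gate, 0.89 (0.7 to 1.13) in the T gate, 1.04 (0.79 to 1.38) in the NK gate and 1.11 (0.81 to 1.51) in the stromal gate, and the monocyte interval alone does not hold 1. In the neutrophil gate Hk1 had 1 and 25 UMIs. Hk2 (ENSMUSG00000000628, chromosome 6, 82725025 to 82774454) was at 86.6 and 95.4 CPM in the monocyte gate, 91.8 and 94.9 CPM in the macrophage gate, 35.8 and 42.8 CPM in the T gate, 18.1 and 20.4 CPM in the NK gate and 44.5 and 56 CPM in the stromal gate for Control and IR in turn. Hk2 ratios of IR over Control were 1.1 (0.97 to 1.26) in the monocyte gate, 1.03 (0.94 to 1.14) in the macrophage gate, 1.2 (0.88 to 1.62) in the T gate, 1.13 (0.74 to 1.76) in the NK gate and 1.26 (0.89 to 1.79) in the stromal gate, with 3 and 45 UMIs in the neutrophil gate. Hk2 intervals hold 1 in all of these gates. Hk3 (ENSMUSG00000025877, chromosome 13, 55005985 to 55021385) was at 73.5 and 80.8 CPM in the monocyte gate, 71.9 and 91.1 CPM in the macrophage gate, 5.76 and 19.8 CPM in the T gate and 9.85 and 13.9 CPM in the NK gate for Control and IR in turn. Hk3 ratios of IR over Control were 1.1 (0.96 to 1.27) in the monocyte gate, 1.27 (1.15 to 1.4) in the macrophage gate, 3.43 (1.84 to 6.8) in the T gate and 1.41 (0.81 to 2.56) in the NK gate. The neutrophil gate had 3 and 42 UMIs and the stromal gate 0 and 1. The Hk3 call in the T gate stands on 14 and 42 UMIs, in 12 and 25 cells. The monocyte list and the neutrophil list were higher in IR in the same cells (above). Without the 6% of cells with the highest doublet score the log2 ratio was 0.6 in place of 0.92. The part of myeloid RNA in the call was not tested.

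The next steps are run by glucose-6-phosphate isomerase (Gpi1), phosphofructokinase (Pfkl, Pfkp and Pfkm, the liver, platelet and muscle forms) and the enzymes Pfkfb3 and Pfkfb4, which set the level of its activator. Gpi1 had ratios of 1.05 in the monocyte gate, 1.19 in the macrophage gate, 1.17 in the T gate, 1.37 in the NK gate and 0.99 in the stromal gate. Phosphofructokinase is a control point of the pathway, and Pfkp and Pfkl had ratios of 1.04 to 1.33 in the monocyte, macrophage, T and NK gates. Pfkp (ENSMUSG00000021196, chromosome 13, 6579768 to 6648777) was at 207 and 216 CPM in the monocyte gate, 163 and 198 CPM in the macrophage gate, 173 and 182 CPM in the T gate, 126 and 151 CPM in the NK gate, 106 and 206 CPM in the neutrophil gate and 56.1 and 62.7 CPM in the stromal gate for Control and IR in turn. Pfkp ratios of IR over Control were 1.04 (0.96 to 1.14) in the monocyte gate, 1.21 (1.14 to 1.3) in the macrophage gate, 1.05 (0.91 to 1.21) in the T gate, 1.2 (1.02 to 1.4) in the NK gate, 1.95 (0.74 to 7.3) in the neutrophil gate and 1.12 (0.82 to 1.54) in the stromal gate. Pfkl (ENSMUSG00000020277, chromosome 10, 77986947 to 78010083) was at 65.2 and 72.3 CPM in the monocyte gate, 75 and 89.5 CPM in the macrophage gate, 49 and 65 CPM in the T gate, 46 and 58.2 CPM in the NK gate and 105 and 87.1 CPM in the stromal gate for Control and IR in turn. Pfkl ratios of IR over Control were 1.11 (0.95 to 1.29) in the monocyte gate, 1.19 (1.08 to 1.32) in the macrophage gate, 1.33 (1.03 to 1.71) in the T gate, 1.26 (0.98 to 1.65) in the NK gate and 0.83 (0.65 to 1.06) in the stromal gate, and it had 3 and 28 UMIs in the neutrophil gate. The muscle form was scarce in leukocytes. Pfkm (ENSMUSG00000033065, chromosome 15, 98092589 to 98132451) was at 1.37 and 1.08 CPM in the monocyte gate, 5.29 and 2.31 CPM in the macrophage gate, 3.29 and 3.29 CPM in the T gate, 1.64 and 2.36 CPM in the NK gate and 16.5 and 18.3 CPM in the stromal gate for Control and IR in turn. Pfkm ratios of IR over Control were 0.79 (0.25 to 2.94) in the monocyte gate, 0.44 (0.23 to 0.77) in the macrophage gate, 1 (0.31 to 3.16) in the T gate, 1.44 (0.36 to 8.25) in the NK gate and 1.11 (0.61 to 2.06) in the stromal gate, and no UMI was seen in the neutrophil gate, where 3 counts would make 79.3 CPM in Control. In the macrophage gate Pfkm was lower in IR. Pfkl was the main form in the stromal gate, with 59.1% in Control (52.2% to 65.7%) and 51.8% in IR (45.7% to 57.8%) of the UMIs of the 3 forms, against 21.7% in Control (18.3% to 25.4%) and 26% in IR (22.3% to 29.9%) in the T gate.

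The regulators were rarer. Pfkfb3 (ENSMUSG00000026773, chromosome 2, 11471433 to 11554077) was at 39.5 and 42.8 CPM in the monocyte gate, 31.5 and 31.2 CPM in the macrophage gate, 23 and 24.9 CPM in the T gate, 10.4 and 9.7 CPM in the NK gate and 3.3 and 3.65 CPM in the stromal gate for Control and IR in turn. Pfkfb3 ratios of IR over Control were 1.08 (0.89 to 1.32) in the monocyte gate, 0.99 (0.84 to 1.17) in the macrophage gate, 1.08 (0.73 to 1.6) in the T gate, 0.93 (0.52 to 1.72) in the NK gate and 1.11 (0.26 to 5.34) in the stromal gate, with all intervals holding 1, and it had 0 and 22 UMIs in the neutrophil gate. Pfkfb4 (ENSMUSG00000025648, chromosome 9, 108991778 to 109032228) was at 25.2 and 23.4 CPM in the monocyte gate, 23.2 and 25.3 CPM in the macrophage gate, 3.29 and 8.94 CPM in the T gate, 1.09 and 3.15 CPM in the NK gate and 5.77 and 4.87 CPM in the stromal gate for Control and IR in turn. Pfkfb4 ratios of IR over Control were 0.93 (0.73 to 1.2) in the monocyte gate, 1.09 (0.9 to 1.31) in the macrophage gate, 2.72 (1.14 to 7.17) in the T gate, 2.87 (0.64 to 26.43) in the NK gate and 0.84 (0.27 to 2.73) in the stromal gate, and it had 3 and 12 UMIs in the neutrophil gate. Its T ratio stands on 8 and 19 UMIs. The intervals of both genes hold 1 in the monocyte, macrophage and NK gates.

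The 9 abundant enzymes differed in the same direction in 4 of the gates. All 9 were higher in IR in the NK gate (ratios of 1.37 to 1.74), the T gate (1.17 to 1.39), the macrophage gate (1.09 to 1.46) and the monocyte gate (1.05 to 1.48). Of all genes tested 45.9%, 47.7%, 43.5% and 42.5% were higher in these gates, and of genes of at least 100 CPM on average, nearer to the level of the enzymes, 52.6%, 51.9%, 50.9% and 48.7%. In the stromal gate 8 of 9 were higher (0.99 to 1.27, 46.1% of all genes and 55.8% of the abundant ones) and in the neutrophil gate 7 of 9 (0.88 to 2.16, 53.4% and 52.5%). All 9 stayed higher in the macrophage, T and NK gates in every one of 14 alternative settings, and 8 or 9 of 9 in the monocyte gate in 13. The count was less stable in the stromal gate (5 to 9 of 9 over 12 settings) and the neutrophil gate (6 to 9 over 13).

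**Figure D3:**
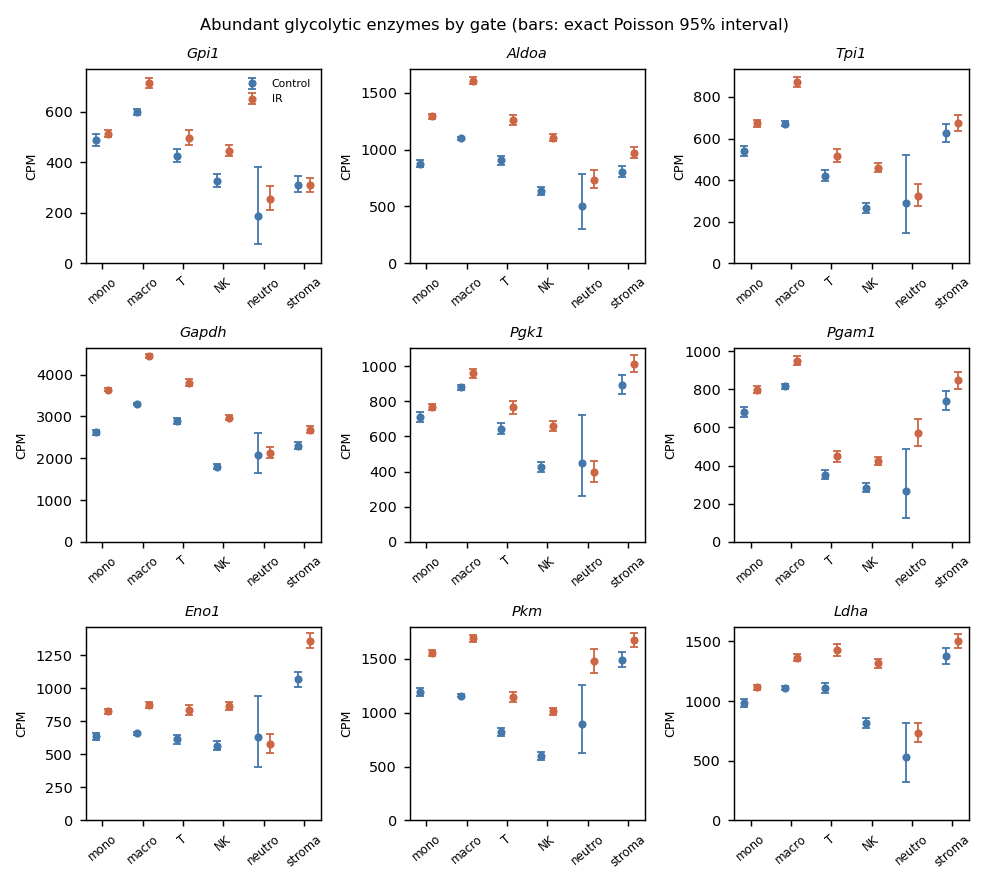
CPM of the 9 abundant glycolytic enzymes by gate in Control (blue) and IR (orange), with exact Poisson 95% intervals. In the NK gate all 9 IR points lie above Control with a gap larger than the intervals, from the lowest Control levels of the 4 main leukocyte gates, while the wide Control bars of the neutrophil gate come from 22 cells.

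Aldolase splits the hexose into trioses. Aldoa (ENSMUSG00000030695, chromosome 7, 126795234 to 126800751) was at 874 and 1291 CPM in the monocyte gate, 1098 and 1607 CPM in the macrophage gate, 906 and 1259 CPM in the T gate, 637 and 1106 CPM in the NK gate, 502 and 735 CPM in the neutrophil gate and 805 and 972 CPM in the stromal gate for Control and IR in turn. Aldoa ratios of IR over Control were 1.48 (1.42 to 1.54) in the monocyte gate, 1.46 (1.43 to 1.5) in the macrophage gate, 1.39 (1.31 to 1.47) in the T gate, 1.74 (1.63 to 1.85) in the NK gate, 1.46 (0.92 to 2.46) in the neutrophil gate and 1.21 (1.11 to 1.31) in the stromal gate, and its ratio and that of Pkm were close in the macrophage, T and NK gates. The second identifier of the same symbol, ENSMUSG00000114515, lies next to it (126800790 to 126809108), and the split of reads between the rows is uncertain. Aldoc, the form of brain, went against it. Its CPM was lower in IR in the T gate (32.1 and 18.8 CPM, ratio 0.59, 0.39 to 0.87), the monocyte gate (38.4 and 23.4 CPM, 0.61, 0.49 to 0.76) and the macrophage gate (76 and 50.1 CPM, 0.66, 0.58 to 0.75), and 25.7 and 22.3 CPM in the NK gate (0.87, 0.6 to 1.26). In empty droplets Aldoc was lower in IR as well, at 51.8 and 27.8 CPM (0.54, 0.41 to 0.69). The part of free RNA in the gate values was not tested. The share of Aldoc in the pair was 6.48% in Control (6.16% to 6.8%) and 3.02% in IR (2.7% to 3.38%) in the macrophage gate. Triose-phosphate isomerase, Tpi1 (ENSMUSG00000023456, chromosome 6, 124810586 to 124814296), was at 540.2 and 674 CPM in the monocyte gate, 672 and 872 CPM in the macrophage gate, 420.1 and 516 CPM in the T gate, 266 and 459 CPM in the NK gate, 291 and 325 CPM in the neutrophil gate and 625 and 674 CPM in the stromal gate for Control and IR in turn. Tpi1 ratios of IR over Control were 1.25 (1.19 to 1.31) in the monocyte gate, 1.3 (1.26 to 1.34) in the macrophage gate, 1.23 (1.13 to 1.34) in the T gate, 1.72 (1.56 to 1.91) in the NK gate, 1.12 (0.61 to 2.28) in the neutrophil gate and 1.08 (0.98 to 1.18) in the stromal gate.

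The lower part of the pathway yields the ATP. Glyceraldehyde-3-phosphate dehydrogenase, Gapdh (ENSMUSG00000057666, chromosome 6, 125161715 to 125166467), was at 2616 and 3639 CPM in the monocyte gate, 3291 and 4441 CPM in the macrophage gate, 2889 and 3801 CPM in the T gate, 1800 and 2972 CPM in the NK gate, 2089 and 2130 CPM in the neutrophil gate and 2297 and 2683 CPM in the stromal gate for Control and IR in turn. Gapdh ratios of IR over Control were 1.39 (1.36 to 1.42) in the monocyte gate, 1.35 (1.33 to 1.37) in the macrophage gate, 1.31 (1.27 to 1.36) in the T gate, 1.65 (1.59 to 1.72) in the NK gate, 1.02 (0.81 to 1.3) in the neutrophil gate and 1.17 (1.11 to 1.23) in the stromal gate. It was found in most cells of every gate at 1000 UMIs. The share of NK-gate cells with a Gapdh UMI was 66.2% in Control (interval 60.1% to 71.9%) and 78.1% in IR (interval 73.6% to 82.1%). Phosphoglycerate kinase, Pgk1 (ENSMUSG00000062070, chromosome X, 106187100 to 106203699), was at 711 and 767 CPM in the monocyte gate, 879.5 and 959 CPM in the macrophage gate, 645 and 766 CPM in the T gate, 425 and 659.6 CPM in the NK gate, 449.6 and 397 CPM in the neutrophil gate and 894 and 1015 CPM in the stromal gate for Control and IR in turn. Pgk1 ratios of IR over Control were 1.08 (1.03 to 1.13) in the monocyte gate, 1.09 (1.06 to 1.12) in the macrophage gate, 1.19 (1.11 to 1.27) in the T gate, 1.55 (1.43 to 1.69) in the NK gate, 0.88 (0.54 to 1.55) in the neutrophil gate and 1.14 (1.05 to 1.23) in the stromal gate, and its ratio was the smallest of the 9 in the macrophage gate. Pgam1, a mutase, had ratios of 1.17 in the monocyte and macrophage gates, 1.27 in the T gate, 1.49 in the NK gate and 1.15 in the stromal gate.

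Enolase, Eno1 (ENSMUSG00000063524, chromosome 4, 150236721 to 150248879), was at 635 and 826 CPM in the monocyte gate, 661 and 872 CPM in the macrophage gate, 612 and 836 CPM in the T gate, 564 and 863 CPM in the NK gate, 635 and 581 CPM in the neutrophil gate and 1066 and 1357 CPM in the stromal gate for Control and IR in turn. Eno1 ratios of IR over Control were 1.3 (1.24 to 1.36) in the monocyte gate, 1.32 (1.28 to 1.36) in the macrophage gate, 1.36 (1.27 to 1.46) in the T gate, 1.53 (1.43 to 1.64) in the NK gate, 0.92 (0.6 to 1.46) in the neutrophil gate and 1.27 (1.19 to 1.36) in the stromal gate. Eno2, the form of neurons, had at most 6 UMIs in any gate and library. Pyruvate kinase, Pkm (ENSMUSG00000032294, chromosome 9, 59656368 to 59679375), was at 1190 and 1552 CPM in the monocyte gate, 1157 and 1688 CPM in the macrophage gate, 821 and 1142 CPM in the T gate, 594 and 1012 CPM in the NK gate, 899 and 1478 CPM in the neutrophil gate and 1492 and 1675 CPM in the stromal gate for Control and IR in turn. Pkm ratios of IR over Control were 1.3 (1.26 to 1.35) in the monocyte gate, 1.46 (1.43 to 1.49) in the macrophage gate, 1.39 (1.31 to 1.48) in the T gate, 1.7 (1.59 to 1.82) in the NK gate, 1.64 (1.17 to 2.39) in the neutrophil gate and 1.12 (1.06 to 1.19) in the stromal gate. Its M1 and M2 forms share the 3′ end that was counted and cannot be told apart. Lactate dehydrogenase A, Ldha (ENSMUSG00000063229, chromosome 7, 46841475 to 46855627), was at 982 and 1115 CPM in the monocyte gate, 1107 and 1362 CPM in the macrophage gate, 1107 and 1425 CPM in the T gate, 814 and 1317 CPM in the NK gate, 529 and 730.3 CPM in the neutrophil gate and 1377 and 1501 CPM in the stromal gate for Control and IR in turn. Ldha ratios of IR over Control were 1.14 (1.09 to 1.18) in the monocyte gate, 1.23 (1.2 to 1.26) in the macrophage gate, 1.29 (1.22 to 1.36) in the T gate, 1.62 (1.53 to 1.71) in the NK gate, 1.38 (0.88 to 2.29) in the neutrophil gate and 1.09 (1.02 to 1.16) in the stromal gate. Ldha thus had ratios of 1.62 in the NK gate and 1.14 in the monocyte gate with intervals that do not overlap. Reads of Gapdh, Eno1, Pgk1 and other enzymes with many processed copies in the genome may be lost or shared in counting.

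The NK difference was present in both kinds of NK-gate cell. With a UMI of the Ly49 receptors Klra4, Klra7 or Klra8 (142 and 208 cells) the 9 enzymes had ratios of 1.3 to 1.86, and without one (121 and 175 cells) 1.4 to 1.76. In cells without a UMI of 11 cycling genes (165 and 255 cells) the ratios were 1.41 to 1.95, and the share of cells with such a UMI was 37.3% in Control (31.4% to 43.4%) and 33.4% in IR (28.7% to 38.4%). In T-gate cells the 9 ratios were 1.22 to 1.64 with a UMI of Cd8a or Cd8b1 (160 and 93 cells) and 1.11 to 1.34 without (238 and 149). Macrophage-gate cells without any UMI of the monocyte list (1119 and 176 cells) gave 1.24 to 1.5. In the NK gate the monocyte list was at 1410 and 1740 CPM, the neutrophil list at 26.3 and 47.7 CPM, the phagocyte list, which includes Fcer1g, at 3080 and 3410 CPM, and the macrophage list at 204 and 148 CPM. Their part in the NK ratios was not tested.

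HIF-1alpha (Hif1a) is the oxygen-regulated subunit, and Egln1 and Egln3 mark it for degradation when oxygen is present. Egln3 is itself induced by HIF. Hif1a (ENSMUSG00000021109, chromosome 12, 73901375 to 73947530) was at 302 and 318 CPM in the monocyte gate, 222 and 275 CPM in the macrophage gate, 365 and 421 CPM in the T gate, 144 and 147 CPM in the NK gate, 370.2 and 289.5 CPM in the neutrophil gate and 92.3 and 85.9 CPM in the stromal gate for Control and IR in turn. Hif1a ratios of IR over Control were 1.05 (0.98 to 1.13) in the monocyte gate, 1.24 (1.17 to 1.31) in the macrophage gate, 1.15 (1.05 to 1.27) in the T gate, 1.02 (0.88 to 1.18) in the NK gate, 0.78 (0.45 to 1.47) in the neutrophil gate and 0.93 (0.72 to 1.2) in the stromal gate. Its RNA was thus higher in the macrophage and T gates, while the monocyte, NK, neutrophil and stromal intervals hold 1. Egln1 (ENSMUSG00000031987, chromosome 8, 124908587 to 124949324) was at 81.7 and 83.5 CPM in the monocyte gate, 90 and 110.1 CPM in the macrophage gate, 108 and 117 CPM in the T gate, 59.6 and 63.1 CPM in the NK gate and 128 and 112 CPM in the stromal gate for Control and IR in turn. Egln1 ratios of IR over Control were 1.02 (0.89 to 1.17) in the monocyte gate, 1.22 (1.12 to 1.34) in the macrophage gate, 1.08 (0.9 to 1.29) in the T gate, 1.06 (0.84 to 1.34) in the NK gate and 0.88 (0.7 to 1.09) in the stromal gate, with 2 and 10 UMIs in the neutrophil gate. The macrophage interval alone does not hold 1.

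Egln3 (ENSMUSG00000035105, chromosome 12, 54178981 to 54203860) was at 29.1 and 40.2 CPM in the monocyte gate, 37.3 and 51.8 CPM in the macrophage gate, 14.8 and 34.8 CPM in the T gate, 1.64 and 6.29 CPM in the NK gate, 132 and 351 CPM in the neutrophil gate and 30.5 and 11.6 CPM in the stromal gate for Control and IR in turn. Egln3 ratios of IR over Control were 1.38 (1.11 to 1.73) in the monocyte gate, 1.39 (1.21 to 1.58) in the macrophage gate, 2.35 (1.56 to 3.61) in the T gate, 3.83 (1.16 to 19.87) in the NK gate, 2.65 (1.11 to 8.29) in the neutrophil gate and 0.38 (0.21 to 0.68) in the stromal gate. It was higher in IR in all 5 leukocyte gates and lower in the stromal gate. The counts were small outside the monocyte and macrophage gates, with 36 and 74 UMIs in the T gate, 3 and 24 in the NK gate and 5 and 160 in the neutrophil gate. In the stromal gate 14 of the 37 Control UMIs came from 1 cell, and without the top cell of each library the ratio was 0.484. The T log2 ratio of 0.85 was 0.33 with the gate minimum raised by 2 and 0.32 in cells with a Cd8a or Cd8b1 UMI. In IR neutrophil-gate cells Egln3 was found in 25.2% of cells at 1000 UMIs (18.4% to 33%), against 2.89% (1.17% to 5.87%) of IR T-gate cells.

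**Figure D4:**
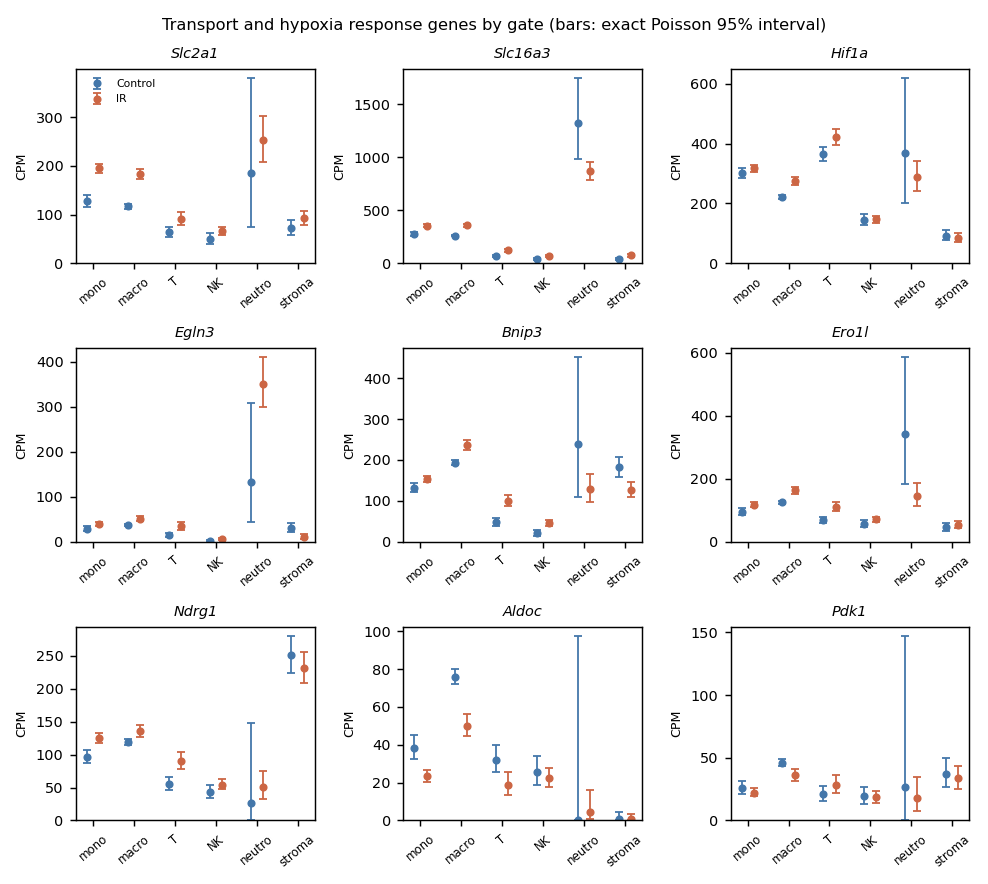
CPM of 9 transport and hypoxia response genes by gate in Control (blue) and IR (orange), with exact Poisson 95% intervals. Slc16a3 and Egln3 stand highest in the neutrophil gate, Bnip3 is higher in IR in the T and NK gates and lower in the stromal gate, and Aldoc is lower in IR in the monocyte, macrophage and T gates.

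Bnip3 and Bnip3l (NIX) are mitophagy receptors of the outer mitochondrial membrane. Bnip3 is a strong HIF target. Bnip3 (ENSMUSG00000078566, chromosome 7, 138890836 to 138909519) was at 132 and 153 CPM in the monocyte gate, 193 and 237 CPM in the macrophage gate, 48.1 and 99.3 CPM in the T gate, 21.3 and 46.4 CPM in the NK gate, 238 and 129 CPM in the neutrophil gate and 182 and 127 CPM in the stromal gate for Control and IR in turn. Bnip3 ratios of IR over Control were 1.16 (1.04 to 1.28) in the monocyte gate, 1.23 (1.15 to 1.3) in the macrophage gate, 2.06 (1.64 to 2.61) in the T gate, 2.17 (1.53 to 3.16) in the NK gate, 0.54 (0.27 to 1.25) in the neutrophil gate and 0.7 (0.58 to 0.85) in the stromal gate. In lymphocytes it was low in Control and higher in IR, in 62 Control and 69 IR cells of the T gate and 24 and 71 cells of the NK gate. Without the top cell of each library the ratios were 2.08 and 2.27. At 1000 UMIs the share of T-gate cells with a Bnip3 UMI was 3.27% in Control (interval 1.75% to 5.52%) and 5.37% in IR (interval 2.89% to 9.01%), and the intervals overlap. Bnip3l (ENSMUSG00000022051, chromosome 14, 66985239 to 67008877) was at 119.5 and 111 CPM in the monocyte gate, 123 and 131 CPM in the macrophage gate, 154 and 159.6 CPM in the T gate, 118 and 109.8 CPM in the NK gate, 185 and 191 CPM in the neutrophil gate and 181 and 142 CPM in the stromal gate for Control and IR in turn. Bnip3l ratios of IR over Control were 0.93 (0.83 to 1.04) in the monocyte gate, 1.06 (0.98 to 1.15) in the macrophage gate, 1.03 (0.89 to 1.2) in the T gate, 0.93 (0.79 to 1.1) in the NK gate, 1.03 (0.48 to 2.64) in the neutrophil gate and 0.78 (0.65 to 0.94) in the stromal gate. The Bnip3l intervals hold 1 in both lymphocyte gates, and it was lower in IR in the stromal gate, where Bnip3 was lower as well.

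Pdk1 inhibits pyruvate dehydrogenase, which makes acetyl-CoA from pyruvate in mitochondria, and Ero1l is the oxidase of disulfide formation in the endoplasmic reticulum. Pdk1 (ENSMUSG00000006494, chromosome 2, 71873224 to 71903858) was at 25.8 and 22.3 CPM in the monocyte gate, 46.1 and 36.2 CPM in the macrophage gate, 21 and 28.2 CPM in the T gate, 19.1 and 18.3 CPM in the NK gate and 37.1 and 33.5 CPM in the stromal gate for Control and IR in turn. Pdk1 ratios of IR over Control were 0.86 (0.67 to 1.11) in the monocyte gate, 0.78 (0.67 to 0.91) in the macrophage gate, 1.35 (0.91 to 2) in the T gate, 0.96 (0.63 to 1.48) in the NK gate and 0.9 (0.6 to 1.37) in the stromal gate, with 1 and 8 UMIs in the neutrophil gate. It was lower in IR in the macrophage gate, where Ldha was higher. Ero1l (ENSMUSG00000021831, chromosome 14, 45283087 to 45318771) was at 96.2 and 118 CPM in the monocyte gate, 125 and 163 CPM in the macrophage gate, 69.1 and 112 CPM in the T gate, 57.5 and 71.3 CPM in the NK gate, 344 and 147 CPM in the neutrophil gate and 47 and 54.2 CPM in the stromal gate for Control and IR in turn. Ero1l ratios of IR over Control were 1.23 (1.09 to 1.39) in the monocyte gate, 1.3 (1.21 to 1.4) in the macrophage gate, 1.61 (1.32 to 1.98) in the T gate, 1.24 (0.99 to 1.57) in the NK gate, 0.43 (0.23 to 0.84) in the neutrophil gate and 1.15 (0.82 to 1.64) in the stromal gate. The neutrophil ratio stands on 13 and 67 UMIs. Ndrg1 (ENSMUSG00000005125, chromosome 15, 66929318 to 66969640), a stress protein, was at 96.8 and 125 CPM in the monocyte gate, 119 and 135 CPM in the macrophage gate, 56 and 90.4 CPM in the T gate, 43.2 and 54.5 CPM in the NK gate and 251 and 231 CPM in the stromal gate for Control and IR in turn. Ndrg1 ratios of IR over Control were 1.29 (1.14 to 1.46) in the monocyte gate, 1.14 (1.05 to 1.23) in the macrophage gate, 1.61 (1.29 to 2.03) in the T gate, 1.26 (0.97 to 1.66) in the NK gate and 0.92 (0.79 to 1.07) in the stromal gate, with 1 and 23 UMIs in the neutrophil gate. In the T gate the Ero1l and Ndrg1 log2 ratios of 0.62 and 0.61 were 0.39 and 0.23 without the cells of highest doublet score, and Ndrg1 was at 0.12 in cells with Cd8a or Cd8b1. Taking all UMIs of the C1q genes, which T cells lack, as free RNA gave a share of free RNA of 4.88% in Control and 8.82% in IR in the T gate. With free RNA subtracted the T gate had 6 calls, the same number, and a median log2 ratio of 0.32 in place of 0.3. The part of free RNA in these calls was not tested further.

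Of the other hypoxia response genes, Higd1a, a mitochondrial protein, had ratios of 1.11 in the monocyte gate, 1.27 in the macrophage gate, 1.33 in the T gate, 1.24 in the NK gate and 1.58 in the stromal gate, and 0.62 (0.3 to 1.51) in the neutrophil gate. Ankrd37 was higher in the macrophage gate (1.27, 1.12 to 1.45) and the stromal gate (1.46, 1.05 to 2.06) with intervals holding 1 in the monocyte, T and NK gates. P4ha1, a collagen prolyl hydroxylase, and Kdm3a, a histone demethylase, had ratios of 0.75 to 1.25 in the monocyte, macrophage, T, NK and stromal gates, and all of those intervals hold 1. Adm, the gene of adrenomedullin, was scarce in leukocytes, with 78 and 9 UMIs in the macrophage gate (0.38, 0.17 to 0.76). In the stromal gate it had 24 and 1 UMIs, of which 16 came from 1 Control cell.

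Across the gates of the IR library, neutrophil-gate cells had the highest CPM of Slc2a1, Slc2a3, Slc16a3 and Egln3, with intervals apart from the next gate in each. They had the lowest CPM of Gpi1, Aldoa, Tpi1, Gapdh, Pgk1, Eno1 and Ldha, although the Gpi1 interval overlaps that of the stromal gate. Stromal-gate cells had the highest Pgk1, Eno1 and Ldha, with overlap with the macrophage gate for Pgk1 and with the T gate for Ldha. In both libraries NK-gate cells had the lowest Slc2a1, Hk2, Bnip3, Bnip3l and P4ha1 of the 6 gates, although several of these lie within the interval of the next gate.

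The level per cell was spread widely. At 1000 UMIs the 36 genes together had a median of 5 UMIs in Control and 7 in IR NK-gate cells (10th to 90th percentile 2 to 10 and 3 to 15). The medians were 11 and 15 in the macrophage gate, 8.5 and 11 in the monocyte gate and 8 and 9 in the T gate. The variance over cells was 2.5 to 5.3 times the mean in these gates, where counting alone gives a ratio near 1. Cells with 2 or more UMIs of 9 hypoxia response genes (Bnip3, Egln3, Ndrg1, Adm, Ankrd37, Ero1l, P4ha1, Kdm3a and Pdk1) had a higher mean of the 9 enzymes than cells with none in all 6 gates of both libraries, although these were only 8 and 12 cells in the NK gate and 6 in the Control neutrophil gate. Cells with 1 such UMI did not lie above cells with none in the IR NK gate (6.51 against 6.68) and the Control stromal gate (7.4 against 7.5). In the Control macrophage gate the mean was 8.3 enzyme UMIs in 1199 cells with none of them, 10.3 in 522 cells with 1 and 13.1 in 359 cells with 2 or more. In the IR macrophage gate it was 11.7, 12.9 and 16.5 over 257, 151 and 106 cells. IR cells without a hypoxia response UMI therefore had a mean between those of Control cells with 1 and with 2 or more. The NK gate went from 4.04 to 6.68 enzyme UMIs between Control and IR in the cells with none, which were 81.4% and 80.9% of its cells. Cells of 1 library are not replicates, and these means are descriptions.

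**Figure D5:**
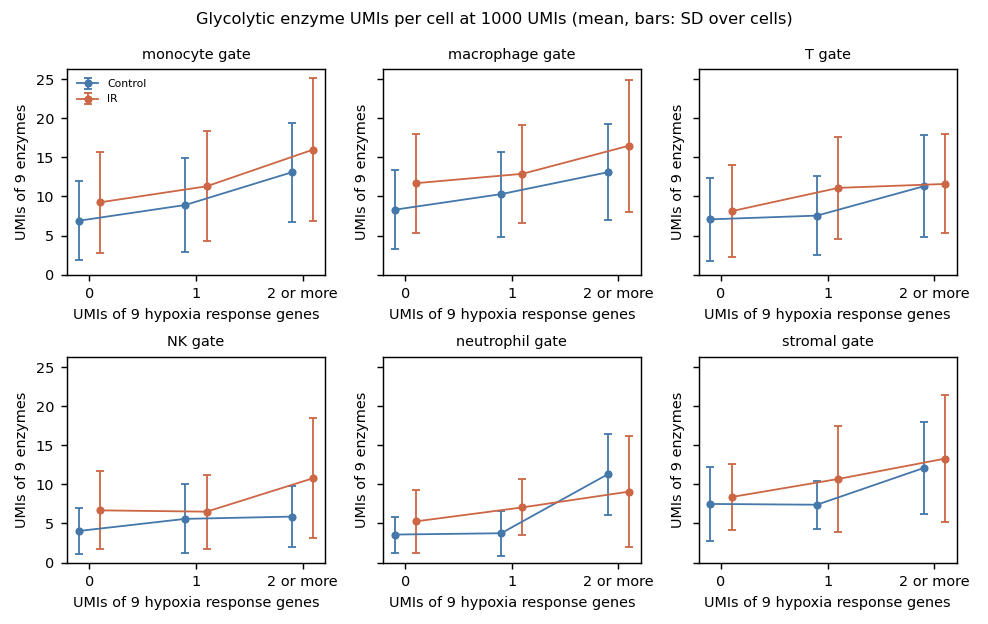
Mean UMIs of the 9 abundant glycolytic enzymes per cell (vertical axis, cells thinned to 1000 UMIs, bars are SD over cells) in cells with 0, 1 or 2 or more UMIs of 9 hypoxia response genes, by gate, for Control (blue) and IR (orange). The mean is higher in cells with 2 or more than in cells with 0 in all 6 gates of both libraries, and the SD bars overlap.

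Neighbouring pathways were followed through 4 further lists. The list of 84 nuclear genes of oxidative phosphorylation had median log2 ratios of -0.07 in the monocyte gate (80 genes passing), -0.1 in the macrophage gate (81), 0.05 in the T gate (77), 0.18 in the NK gate (77) and 0.16 in the stromal gate (78). The medians of the glycolysis and respiration lists thus had opposite signs in the monocyte and macrophage gates and the same sign in the T, NK, neutrophil and stromal gates. All genes had medians of -0.04 in the monocyte gate and -0.03 in the macrophage gate, less negative than those of the respiration list. Of the respiration genes 57 of 80 were lower and 23 higher in the monocyte gate, where 42.5% of all genes were higher. In the macrophage gate 62 of 81 were lower and 19 higher, where 43.5% of all genes were higher. TMM factors would shift monocyte log2 ratios up by 0.09, more than the size of the respiration median there. The respiration list was not rerun with TMM, so its sign in the monocyte gate depends on the scaling. In the NK gate 61 of 77 respiration genes were higher, where 45.9% of all genes were, and none was called. In the neutrophil gate the respiration median was 0.43, with 16 of 21 higher, where 53.4% of all genes were. The median of the 36 genes there was 0.04 over 19 genes passing, below the 0.07 of all genes. The pentose phosphate and glycogen list (13 genes) had medians of -0.06, 0.05, 0.01 and 0.14 in the monocyte, macrophage, T and NK gates. The list of pyruvate fate (pyruvate dehydrogenase, its kinases and Ldhb among 12 genes) had -0.06, -0.09, -0.05 and -0.08, over 10, 11, 8 and 8 genes passing. The medians of all genes in the same gates were -0.04, -0.03, -0.01 and -0.03. The pentose phosphate and glycogen median in the NK gate lay above that of all genes, with 9 of 13 genes higher. In the macrophage gate 10 of 11 genes of pyruvate fate were lower and 1 higher, where 43.5% of all genes were higher. Ldhb was called lower there (0.41, 0.28 to 0.58).

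Of 24 further HIF and hypoxia genes, 3 of 21 were called higher in the monocyte gate, 3 of 22 in the macrophage gate, 4 of 18 in the T gate and 2 of 18 in the NK gate, where 1 was called lower. Of all genes 2.3%, 2.48%, 3.83% and 2.37% were called higher in these gates. In the stromal gate 1 of 20 was called higher and 1 lower (4.4% and 4.75% of all genes), and in the neutrophil gate 1 of 7 higher and 2 lower (26.2% and 17.9%). Ddit4, an inhibitor of mTOR induced by stress, was called higher in all 4, at 12.1 and 29.5 CPM in the monocyte gate, 13.6 and 28.1 CPM in the macrophage gate, 41.1 and 67.3 CPM in the T gate and 30.1 and 51.1 CPM in the NK gate for Control and IR in turn. Ddit4 ratios of IR over Control were 2.45 (1.77 to 3.44) in the monocyte gate, 2.06 (1.69 to 2.51) in the macrophage gate, 1.64 (1.26 to 2.13) in the T gate and 1.7 (1.25 to 2.33) in the NK gate. Hilpda, a lipid droplet protein, was at 128 and 224 CPM in the monocyte gate, 128 and 291 CPM in the macrophage gate, 212 and 218 CPM in the T gate, 161 and 135 CPM in the NK gate, 1375 and 1184 CPM in the neutrophil gate and 19.8 and 22.5 CPM in the stromal gate for Control and IR in turn. Hilpda ratios of IR over Control were 1.75 (1.58 to 1.94) in the monocyte gate, 2.27 (2.13 to 2.41) in the macrophage gate, 1.03 (0.91 to 1.17) in the T gate, 0.84 (0.73 to 0.97) in the NK gate, 0.86 (0.65 to 1.17) in the neutrophil gate and 1.14 (0.66 to 1.99) in the stromal gate, and it was called in the monocyte and macrophage gates. Pgf, a growth factor of vessels, was at 14.2 and 38.4 CPM in the monocyte gate, 15.1 and 21.5 CPM in the macrophage gate and 4.53 and 38.6 CPM in the T gate for Control and IR in turn. Pgf ratios of IR over Control were 2.69 (2.01 to 3.67) in the monocyte gate, 1.42 (1.15 to 1.75) in the macrophage gate and 8.53 (4.53 to 17.75) in the T gate. Its T ratio stands on 11 and 82 UMIs. The NK gate had 1 and 22 UMIs of Pgf, the neutrophil gate 0 and 1, and the stromal gate 11 and 4. Mif, a cytokine, was at 740.1 and 795 CPM in the monocyte gate, 1037 and 1137 CPM in the macrophage gate, 756 and 815 CPM in the T gate, 548 and 832 CPM in the NK gate and 840.1 and 1218 CPM in the stromal gate for Control and IR in turn. Mif ratios of IR over Control were 1.07 (1.03 to 1.12) in the monocyte gate, 1.1 (1.07 to 1.13) in the macrophage gate, 1.08 (1.01 to 1.15) in the T gate, 1.52 (1.41 to 1.63) in the NK gate and 1.45 (1.34 to 1.56) in the stromal gate, and it was called in the NK gate and, at 291 and 557 CPM, in the neutrophil gate. Hmox1, haem oxygenase, was called higher in the macrophage gate (256 and 411 CPM, 1.6, 1.53 to 1.68) and lower in the NK gate (33.4 and 12.1 CPM, 0.36, 0.24 to 0.54), with 1587 and 83.3 CPM in the neutrophil gate. In every gate the lower CPM of a gene cannot be told apart from more RNA of other genes in those cells.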

How the data were processed

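Single-cell RNA was measured in 2 10x libraries, Control and IR, from pooled tumors. The deposited files hold UMI counts per gene and barcode, unfiltered, which the authors made by alignment to mm10. The submitters' processing notes name Cell Ranger 6.0.1, whereas the file headers point to version 4. No strand or multi-mapping setting is given in the sources used here, so enzymes with near-identical copies are uncertain.

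From these counts, barcodes with at least 1000 UMIs, 200 genes and at most 25% mitochondrial UMIs were kept. Each was thinned to 1000 UMIs and gated by summed marker UMIs: at least 3 for T, NK and phagocyte lists, 30 for neutrophils and 4 for stromal cells, with limits on the other lists. Monocyte and macrophage gates were split by the larger of their lists (at least 2). The neutrophil minimum was raised from 8 to 30 after the cells were seen. Unthinned UMIs were summed per gate and library. Levels are CPM with exact Poisson 95% intervals, ratios have exact conditional intervals, and shares exact binomial (Clopper-Pearson) ones, all of which cover counting error only. The log2 ratio adds 10 CPM. A call is a ratio past 1.5 on that scale among genes with at least 20 UMIs in all and 5 expected in each library. With 1 library per group there was no test. The 2 Aldoa rows were summed.

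Genes were named in full where called with an interval without 1 in the monocyte, macrophage, T or NK gate, or as control steps and isozyme pairs fixed in a list. Related genes were named where so called in at least 2 gates. The 36 genes and the other lists were chosen with earlier results of these data known. No doublets were removed. An alternative dropped the top 6% by Scrublet score, beside depth, gate, filter, scaling, pseudocount, free RNA and cycling choices. Python 3.11.15, scipy 1.17.1, scanpy 1.11.5 and, for TMM factors alone, edgeR 4.0.16 in R 4.3.3 were used. The ratio and interval code was tested on simulated data.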

Additional observations from a re-analysis of the deposited data

Results flagged for a closer look

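Of the 36 genes, 4 had ratios of IR over Control whose exact intervals lay on opposite sides of 1 in different gates. The difference between gates was not tested, since there was 1 library per group. Slc16a3 had ratios of 1.29 in the monocyte gate, 1.37 in the macrophage gate, 1.77 in the T gate, 1.67 in the NK gate and 1.89 in the stromal gate, against 0.655 in the neutrophil gate, where the direction turned with a neutrophil minimum of 8. Bnip3 had 1.16, 1.23, 2.06 and 2.17 in the monocyte, macrophage, T and NK gates, against 0.699 in the stromal gate. Ero1l had 1.23, 1.3 and 1.61 in the monocyte, macrophage and T gates, against 0.427 in the neutrophil gate. Egln3 had 1.38, 1.39, 2.35, 3.83 and 2.65 in the monocyte, macrophage, T, NK and neutrophil gates, against 0.379 in the stromal gate, where 14 of 37 Control UMIs came from 1 cell. Among the 5 further genes named with values, Hilpda, Hmox1 and Pgf also had intervals on opposite sides of 1. Hilpda had 1.75 and 2.27 in the monocyte and macrophage gates, against 0.84 in the NK gate. Hmox1 had 1.60 in the macrophage gate, against 0.836, 0.67, 0.36 and 0.05 in the monocyte, T, NK and neutrophil gates. Pgf had 2.69, 1.42, 8.53 and 10.5 in the monocyte, macrophage, T and NK gates, against 0.27 (0.06 to 0.91) in the stromal gate. The stromal Pgf ratio stands on 11 and 4 UMIs, too few for the filter.

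Droplets outside the 6 gates were measured as well. In empty droplets (10 to 100 UMIs) the summed CPM of the 36 genes had a ratio of 1.18 (1.17 to 1.2). In the 154 Control and 165 IR dendritic cells the ratio was 1.09 (1.07 to 1.12), with Slc2a1 at 2 and Bnip3 at 0.66. Of the 9 abundant enzymes 4 were higher there (Aldoa 1.40, Gapdh 1.18, Eno1 1.17 and Pkm 1.13), and the other 5 had ratios below 1 with intervals that hold 1 (Gpi1 0.937, Tpi1 0.981, Pgk1 0.909, Pgam1 0.998 and Ldha 0.922).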

How the results depend on the processing

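Over the alternatives run, the median log2 ratio of the genes was 0.08 to 0.21 in the monocyte gate, 0.16 to 0.33 in the macrophage gate, 0.25 to 0.36 in the T gate, 0.20 to 0.32 in the NK gate, -0.03 to 0.18 in the stromal gate and 0.03 to 1.52 in the neutrophil gate, and calls numbered 0 to 3, 0 to 4, 1 to 8, 7 to 11, 2 to 5 and 4 to 11. The monocyte count of 0 was 1 at 2000 UMIs per cell, 2 with TMM, 1 with totals without mitochondrial, ribosomal and haemoglobin genes, and 3 with a pseudocount of 1 or with cells split by Ly6c2 against C1qa. The macrophage count of 1 was 0 with a gate minimum raised by 2, free RNA subtracted, cycling cells left out or the Ly6c2 and C1qa split, 4 with a pseudocount of 1 and 2 without monocyte-list UMIs. The T count of 6 was 1 with the raised gate. The neutrophil median was 1.52 with 4 calls at 2000 UMIs, a setting that left 3 Control cells and 5 genes with enough UMIs. At least 100 UMIs per gene left 4 calls in the neutrophil gate and 2 in the stromal gate. Among named genes 1 reversed: Slc16a3 in the neutrophil gate went from -0.60 to 0.32 with a neutrophil minimum of 8. TMM moved the median of all genes there from 0.07 to 0.60. The cause was not tested. The gate subsets and the minimum of 8 were chosen after seeing the data. No paired analysis was possible because either condition had 1 library, and for the same reason no replicate could be left out. Counts of UMIs limit the neutrophil gate and the rarer genes most.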
